A study of Mus musculus with 2 samples.

Results

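The forkhead (Fox) genes encode transcription factors that share a winged-helix DNA-binding domain. They were selected as the protein-coding genes whose symbol matched the naming pattern of the Fox family from Foxa to Foxs, which gave 44 genes of the 43346 annotated gene rows, 21474 of them protein-coding. Their RNA was measured in facial prominence tissue of mouse embryos at day 13.5, the swellings of the head that form the jaws, nose and palate, in 1 group of 2 total RNA libraries. The embryos were of strain B6NCrl, males and females pooled, and healthy per the labels, with no treatment or mutation named. The labels call the libraries biological replicates 1 and 2 and give each its own biosample but both the same donor, so their spread holds tissue and library differences together. Replicate 1 held 28542452 expected counts (estimated reads) on gene rows and replicate 2 held 22719352. A count of 0 in a library allows up to 3 counts, which is 0.105 of 1000000 counts in replicate 1 and 0.132 in replicate 2, and such limits and the intervals below cover counting error only. There is 1 group and therefore no contrast between conditions, so levels and their spread between the libraries are described without p-values.

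Fox proteins bind DNA through a recognition helix laid into the major groove, and most can bind the core motif TGTTTAC. Foxa proteins can open closed chromatin, Foxo proteins leave the nucleus when Akt phosphorylates them, and Foxp proteins bind DNA as dimers with each other. In the face, Foxf1 and Foxf2 act in neural crest-derived mesenchyme under Sonic hedgehog (Shh) signalling, and loss of Foxf2 or of Foxe1 gives cleft palate in the mouse.

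The coding sequence of the conserved end of the recognition helix shows how alike and how different the members are. It was found in 43 of the 44 genes (not in Foxr1) by translating the GENCODE transcripts, and each run is 30 bases, 5′ to 3′ on the coding strand. Capitals mark bases that differ from Foxc1. The 10 runs below were chosen to show the chromosome 13 trio and members of several other groups.
Foxc1: aacagcatacggcacaacctctcgctcaac
Foxc2: aacagcatCcgCcacaacctGtcActcaaT
Foxf1: aacTCcGtGcgCcacaacctGtcgctcaac
Foxf2: aacTCcGtGcgCcacaacctctcgctcaac
Foxq1: aacTCcGtGcgCcacaacctctcgctcaac
Foxd1: aacagcatCcgTcacaacctGtcgctcaac
Foxa1: aacTCcatCcgCcacTCGctGtcCTtcaac
Foxm1: aacTCTatTcgTcacaacctTtcTctcCaT
Foxo3: aacTCcatCcggcacaacctGtcCctGCac
Foxn3: aacTCAGtGAgAcacaacTtGtcATtGaaT
Foxf2 and Foxq1, neighbours on chromosome 13, had the same 30 bases. Foxf1 and Foxf2 differed at 1 base, and Foxn3 differed from Foxc1 at 13. Over all 903 pairs of genes the median was 8 differing bases and 5 pairs were identical. Despite this likeness no member shared any run of 100 nt with another member over its annotated transcripts.

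At 1 TPM (transcripts in 1000000, a level per length) or more in both libraries, 20 of the 44 Fox genes were detected (45.5%), against 60.9% of protein-coding genes. The median of mean TPM was 0.93 over the Fox genes (0.95 in replicate 1 and 1.21 in replicate 2) and 4.68 over all protein-coding genes. Levels of 10 TPM or more on average were reached by 6 Fox genes (13.6%), against 40.6% of protein-coding genes, and no Fox gene reached 100 TPM, against 6.83% of protein-coding genes. The family's sum was 282 TPM in replicate 1, against 268 in replicate 2. The highest pair, Foxn3 and Foxp1, held 47.1% and 44.9% of those sums.

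**Figure D1:**
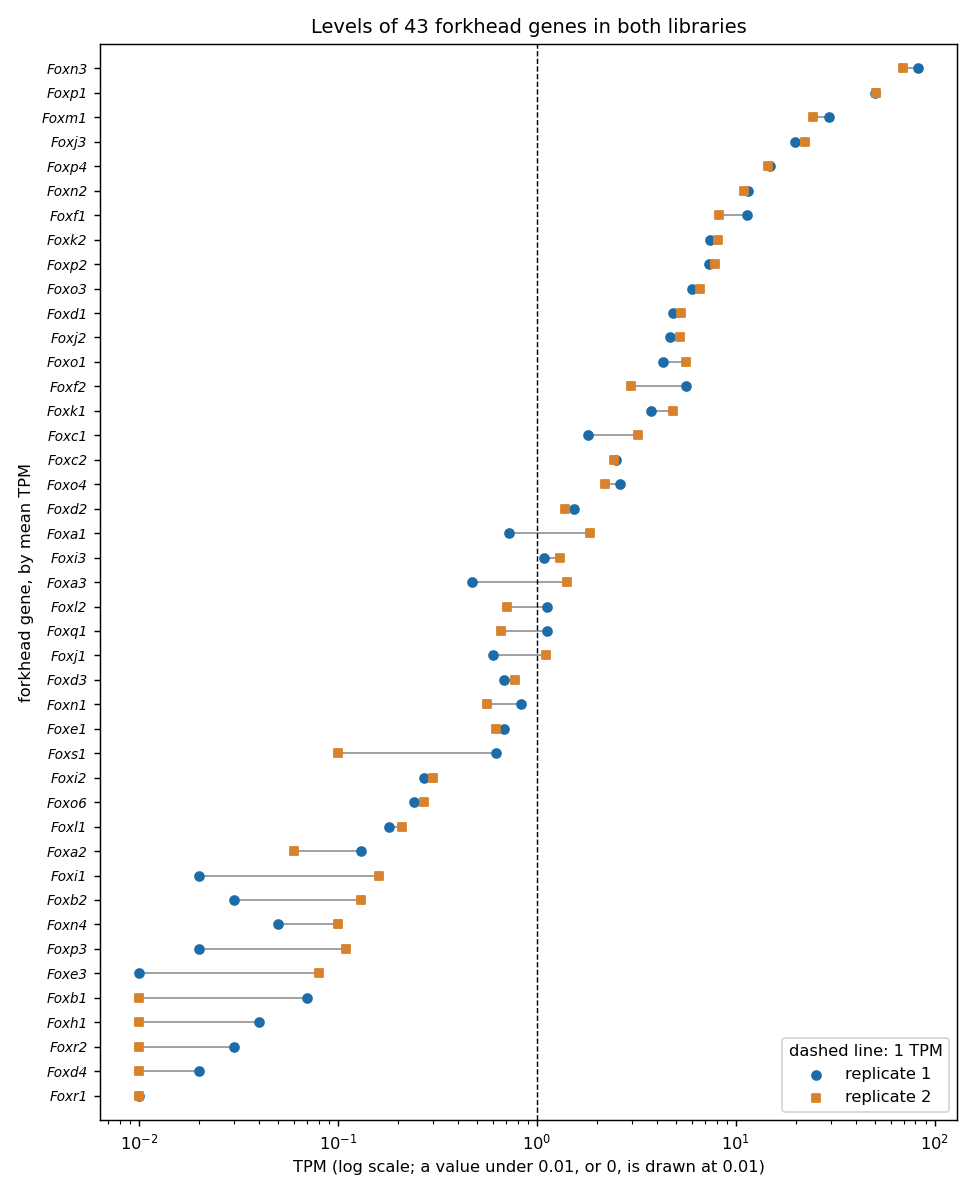
TPM of 43 forkhead genes (log axis) in replicate 1 (circles) and replicate 2 (squares), ordered by mean TPM, with a dashed line at 1 TPM. Foxn3 and Foxp1 lead, 20 genes lie right of the line in both libraries, and the pairs of points spread apart towards the low end, where counts are few.

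The Foxk, Foxj2/Foxj3 and Foxn2/Foxn3 genes, which are widely expressed, held the largest share of the family's TPM, 46.2% in replicate 1 and 45.2% in replicate 2. All 6 were detected in both libraries. Foxn3 (GRCm38 chr12:99190078-99563582, minus strand), a repressor linked to cell cycle checkpoints, was highest of all Fox genes at 82.9 and 69.5 TPM in replicates 1 and 2 (76.2 ± 9.51, SD, n = 2). Foxn2, its closest relative, stood at 11.6 and 11.1 TPM. Foxj3, known in the mouse from muscle and the male germ line, had 19.8 and 22.4 TPM, and its relative Foxj2 had 4.66 and 5.26 TPM. Foxk2 had 7.45 and 8.14 TPM and Foxk1 3.74 and 4.84 TPM. Both Foxk proteins bind the Sin3 corepressors and Foxk2 the deubiquitinase Bap1. Of 9 Foxk partner genes all 9 reached 1 TPM in both libraries, against 60.9% of protein-coding genes. Sin3b at 133 and 144 TPM and Bap1 at 69.9 and 69.3 TPM led. This list and those below were chosen with earlier results known, so such shares are not read as a result about Fox genes.

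The Foxp genes, whose products are repressors that pair with each other, came next with 25.6% and 27.3% of the family's TPM. Foxp1 (chr6:98925338-99522721, minus strand) had 50.0 and 50.8 TPM. Foxp4 had 14.8 and 14.4 TPM, and Foxp2, known from the development of circuits for vocal and motor learning, had 7.36 and 7.88 TPM. Foxp3, the factor of regulatory T cells, was at 0.02 and 0.11 TPM. Its exons overlap 4 other genes, and the 5 T cell markers Cd3g, Cd4, Cd3e, Cd8a and Il2ra summed to 0.82 and 0.24 TPM, with Il2ra at 0 in both libraries. Of 11 genes for Foxp partners and corepressors 10 reached 1 TPM in both, against 60.9% of protein-coding genes. The highest were Hdac2 (246 and 271 TPM), Ctbp1 (194 and 221 TPM) and Hdac1 (181 and 185 TPM).

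Foxm1 (chr6:128362967-128376146, plus strand), the activator of genes of the G2 phase and mitosis, had 29.3 and 24.5 TPM in replicates 1 and 2. Its start lies 56 nt from that of Rhno1, a gene on the opposite strand that had 117 and 119 TPM. All 12 listed Foxm1 target genes reached 1 TPM in both libraries, against 60.9% of protein-coding genes. The highest were Birc5 (259 and 251 TPM), Top2a (203 and 214 TPM) and Cenpa (208 and 182 TPM).

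The genes of mesenchyme, Foxc1, Foxc2, Foxd1, Foxd2, Foxf1, Foxf2, Foxl1 and Foxs1, held 10.1% of the family's TPM in replicate 1 and 8.91% in replicate 2, and 6 of the 8 were detected in both. Foxf1 (chr8:121084386-121088144, plus strand) led with 11.3 and 8.25 TPM. Foxd1, a gene of kidney stroma and of the retina, had 4.86 and 5.30 TPM, and Foxf2 (chr13:31625816-31631403, plus strand) had 5.62 and 2.98 TPM. Foxc1 (chr13:31806633-31812476, plus strand), needed for skull and eye development, had 1.80 and 3.23 TPM and Foxc2 had 2.50 and 2.43 TPM. Foxd2 followed at 1.54 and 1.39 TPM. Foxl1, a gene of gut mesenchyme, had 0.18 and 0.21 TPM. Foxs1, a gene of pericytes, rested on 16 counts in replicate 1 and 2 counts in replicate 2 (0.62 and 0.10 TPM). The tissue markers Msx1, Alx1, Prrx1, Pdgfra and Twist1 summed to 923 and 906 TPM, so the markers of facial mesenchyme that the label implies were present.

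Of the Shh pathway, which acts upstream of Foxf1 and Foxf2, 11 of 14 genes reached 1 TPM in both libraries, against 60.9% of protein-coding genes. The coreceptor Gas1 led at 157 and 145 TPM, followed by Boc (38.7 and 41.7 TPM) and the transducer Smo (39.2 and 37.4 TPM). The ligands Shh, Dhh and Ihh were at 0.62 to 0.84 TPM. In whole tissue, fewer cells that make an RNA and less of it in each cell cannot be told apart.

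The Foxo genes, which act downstream of insulin and Akt, held 4.68% and 5.47% of the family's TPM. Foxo3 had 6.04 and 6.58 TPM, Foxo1 4.30 and 5.60 TPM and Foxo4 2.61 and 2.21 TPM, while Foxo6, known mainly from brain, had 0.24 and 0.27 TPM. Of 18 genes for Akt signalling and Foxo regulation all 18 reached 1 TPM in both, against 60.9% of protein-coding genes. The highest were the 14-3-3 proteins Ywhae (746 and 736 TPM) and Ywhaq (679 and 674 TPM), which hold phosphorylated Foxo in the cytoplasm. Of 18 listed Foxo target genes 17 reached 1 TPM in both, led by Txnip (85.1 and 106 TPM) and Cdkn1a (68.2 and 57.2 TPM). The gluconeogenic target G6pc was listed at 0 in both.

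The genes of epithelia and endoderm summed to 5.93 and 8.04 TPM. Of these 10 genes only Foxi3, a gene of ear and tooth placodes, reached 1 TPM in both libraries (1.08 and 1.31 TPM). The epithelial markers Krt14, Krt5, Epcam, Trp63 and Cdh1 summed to 1020 and 933 TPM in the same libraries. Foxa1, Foxa3 and the motile cilium factor Foxj1 passed 1 TPM in replicate 2 alone, at 1.85, 1.41 and 1.11 TPM, and had 0.72, 0.47 and 0.60 TPM in replicate 1. Foxq1, a gene of hair and stomach, passed it in replicate 1 alone (1.13 and 0.66 TPM). Foxe1, which is required for thyroid and palate, had 0.68 and 0.62 TPM from 39 and 27 counts. Foxn1, the factor of thymic epithelium and hair, had 0.83 and 0.56 TPM, and Foxi2, Foxa2 and Foxi1 were at 0.02 to 0.30 TPM.

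The genes known mainly from the nervous system, eye and neural crest were low. Foxd3, an early neural crest factor, had 0.68 and 0.78 TPM. Foxb1, Foxb2, Foxd4, Foxe3, Foxn4, Foxr1 and Foxr2 were at 0 to 0.13 TPM, and Foxr1 had no counts in either library. Foxh1, the DNA-binding partner of Smad2 in nodal signalling, rested on 1 count in replicate 1 and 0 in replicate 2. Nodal itself was at 0.12 and 0.19 TPM, while Smad2 had 38.2 and 36.9 TPM. Foxl2, a gene of ovary, pituitary and eyelid, passed 1 TPM in replicate 1 alone (1.12 and 0.71 TPM).

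Neighbours in the order of mean levels were often not separable. Among the 24 pairs of successive genes from Foxn3 down to Foxj1, the deposited credibility intervals lay apart in both libraries for 8. Foxn3, Foxp1 and Foxm1 were apart in that order, as were Foxj3, Foxp4 and Foxn2. With transcripts of 1000 nt or more only, Foxn2 (11.3 and 11.1 TPM) stood above Foxp4 (11.2 and 9.78 TPM). The intervals of Foxm1 and Foxj3 were not apart in both libraries, nor were those of Foxn2, Foxf1, Foxk2 and Foxp2 one after another. The level of these intervals is not given in the file headers, and they belong to the posterior mean TPM, which can differ from TPM. For Foxp2 the posterior mean was 9.62 and 10.8 TPM, above its TPM of 7.36 and 7.88.

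Related genes were compared in 18 pairs, of which 13 had intervals apart in the same order in both libraries. Foxp1 exceeded Foxp2 by 2.73 ± 0.05 on the log2 scale of TPM (SD, n = 2) and Foxp4 by 1.78 ± 0.04. Foxn3 exceeded Foxn2 by 2.75 ± 0.14 (1.96 ± 0.01 with transcripts of 1000 nt or more only) and Foxj3 exceeded Foxj2 by 2.09 ± 0.003. With the same restriction Foxp1 exceeded Foxp2 by 2.52 and Foxp4 by 2.01, and Foxj3 exceeded Foxj2 by 1.93. The SD over 2 libraries thus does not cover the choice of transcript models. Foxo3 exceeded Foxo4 by 1.39 ± 0.26 and Foxo1 exceeded Foxo6 by 4.27 ± 0.15. Foxf2 lay under Foxf1 in both libraries (log2 ratios of -1.01 and -1.47), Foxd2 under Foxd1 (-1.66 and -1.93) and Foxk1 under Foxk2 (-0.99 and -0.75). Foxi2 also lay under Foxi3, Foxo1 under Foxo3, Foxe3 under Foxe1 and Foxd4 under Foxd3. The 5 pairs that were not apart in both were Foxc1 and Foxc2, Foxc1 and Foxf2, Foxp4 and Foxp2, Foxa1 and Foxa2, and Foxn1 and Foxn4. Foxc1 was below Foxc2 in replicate 1 (-0.47) and above it in replicate 2 (0.41), and in replicate 2 the intervals overlapped.

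**Figure D2:**
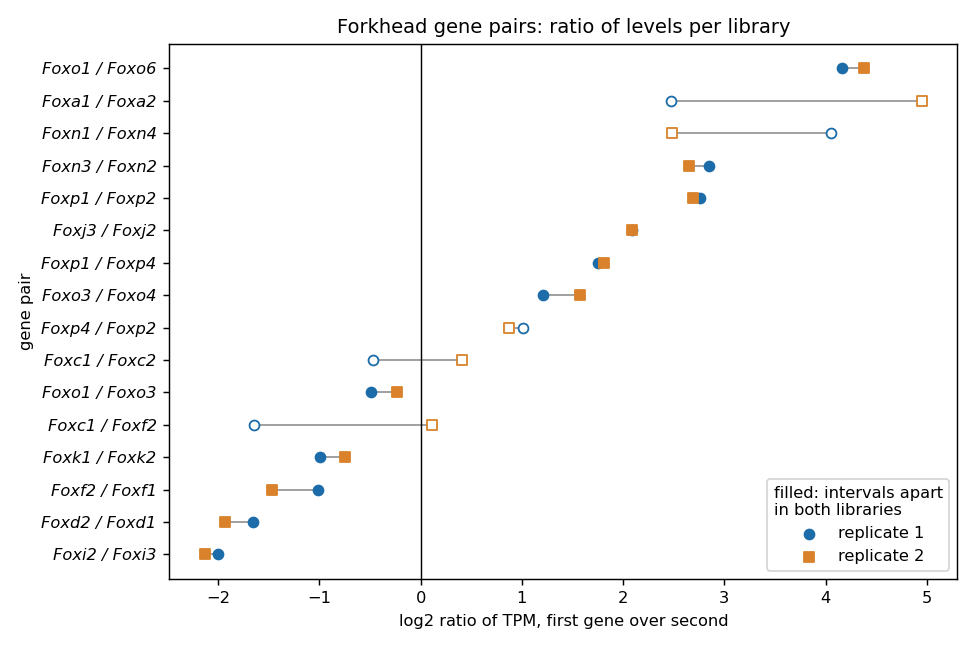
Log2 ratio of TPM, first gene over second, in replicate 1 (circles) and replicate 2 (squares) for 16 gene pairs with counts in both libraries; filled points mark pairs whose credibility intervals were apart in both. Foxp1 over Foxp2, Foxn3 over Foxn2 and Foxj3 over Foxj2 nearly coincide between the libraries, while Foxc1 over Foxc2 and Foxc1 over Foxf2 lie on both sides of 0.

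Between the libraries, 29 Fox genes had a mean expected count of 20 or more, and 8 of them differed by 1.5-fold or more (27.6%), against 6.72% of protein-coding genes past the same limits. Low counts spread more: with a mean count of 20 to under 100 it was 6 of 11 Fox genes (54.5%) against 30.2% of protein-coding genes, and with 100 or more it was 2 of 18 (11.1%) against 2.37%. Those were 1 gene in each direction (5.56%), against 0.764% of protein-coding genes higher in replicate 1 and 1.6% higher in replicate 2. These shares describe 1 library against 1 library and have no replicate check. The 4 genes higher in replicate 1 (13.8%, against 2.36% of protein-coding genes) were Foxf2, Foxq1, Foxl2 and Foxn1. The 4 higher in replicate 2 (13.8%, against 4.36%) were Foxa3, Foxa1, Foxj1 and Foxc1.

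Foxf2 had 269 counts in replicate 1 and 109 in replicate 2, a log2 ratio of 1.01 (exact 95% interval 0.69 to 1.35, counting error only). Foxc1 had 147 and 201 counts, a log2 ratio of -0.74 (-1.06 to -0.43). Both thus differed beyond counting error, in opposite directions, although they lie on the same chromosome. Beside Foxf2 and Foxc1, the osteoblast markers Ibsp, Runx2 and Sp7 summed to 347 TPM in replicate 1 and 234 TPM in replicate 2. Of these 3, 1 was past 1.5-fold (Ibsp, higher in replicate 1). The chondrocyte markers Col2a1, Sox9 and Acan summed to 319 and 427 TPM with 0 of 3 past it, and the 5 facial mesenchyme markers had 0 of 5 past it. The forebrain markers summed to 42.5 and 58.0 TPM, with 4 of 6 compared past 1.5-fold, against 6.72% of protein-coding genes. These 4 (Lhx2, Six3, Neurod1 and Neurod6) were all higher in replicate 2, as Foxc1 and Foxj1 were. The highest forebrain markers, Emx2 (17.9 and 19.05 TPM) and Dlx1 (11.35 and 14.04 TPM), were within 1.5-fold. Whether the listed genes mark forebrain alone in this tissue was not tested. The neuron markers summed to 182 and 224 TPM with 1 of 5 past it (Elavl4, higher in replicate 2). Their part in the Foxf2, Foxc1 and Foxj1 ratios was not tested.

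Foxa1 had 47 counts in replicate 1 and 92 in replicate 2, a log2 ratio of -1.24 (-1.80 to -0.74), and Foxa3 had 19 and 44, a ratio of -1.45 (-2.36 to -0.70). Both are factors of liver and other endoderm. The liver markers moved the same way: all 8 of Trf, Afp, Apoa1, Alb, Apoa2, Serpina1a, Ttr and Fgb were past 1.5-fold, against 6.72% of protein-coding genes. Their sum was 15.6 TPM in replicate 1 and 361 TPM in replicate 2. Albumin (Alb) had 1.34 and 46.5 TPM, and the fibrinogen chain Fgb was at 0 and 4.63 TPM. The gut and lung markers Sox17, Sftpc, Shh, Cdx2 and Nkx2-1 summed to 9.51 and 8.83 TPM, but single genes moved in opposite directions. Sftpc had 48 counts in replicate 1 and 2 in replicate 2, the only one of 3 compared that was past 1.5-fold, and Cdx2 had 0 and 15 counts. The part of liver or other endoderm RNA in the Foxa1 and Foxa3 values was not tested. Foxa2, also a liver factor, had 3 and 2 counts.

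Foxj1 had 32 and 45 counts in replicates 1 and 2, a log2 ratio of -0.76 (-1.48 to -0.10). Of its 12 measured cofactors and motile cilium genes 5 reached 1 TPM in both, against 60.9% of protein-coding genes. The set of 12 summed to 24.6 and 31.1 TPM, led by the broader ciliary regulator Rfx3 (12.2 and 14.1 TPM). Of these 5, 1 was past 1.5-fold and higher in replicate 2, as Foxj1 was (Ccdc39, 1.27 and 2.2 TPM), and Tekt1 had 2.37 and 3.82 TPM. Rsph1 had 0.36 and 1.16 TPM, while the axonemal dynein Dnah5 was at 0.07 and 0.02 TPM and Dnah9 at 0.10 and 0.08 TPM. Foxq1 had 60.9 and 27.2 expected counts, a ratio of 0.86 (0.21 to 1.60). Its GENCODE M21 model of 4843 nt shares 65.4% of its runs of 100 nt with A530084C06Rik on the opposite strand (0.25 and 0.14 TPM). The quantified Foxq1 row is 2653 nt long, and the share within that shorter model was not computed. Without stated strandedness, reads of any shared stretch cannot be told apart. Foxn1 had 55 and 28 counts, a ratio of 0.67 with an interval reaching down to 0.001, beside thymic markers of which Ccl25 had 9.36 and 7.90 TPM, Prss16 0.99 and 0.41 TPM and Psmb11 0.01 and 0.04 TPM. Foxl2 had 27 and 13 counts, a ratio of 0.72 whose interval (-0.24 to 1.84) included 0. The pituitary and gonad markers beside it summed to 13.6 and 11.8 TPM, with Pomc past 1.5-fold (3.28 and 2.12 TPM) and Gnrhr at 0 and 0.03 TPM. The part of those cell types in these ratios was not tested.

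**Figure D3:**
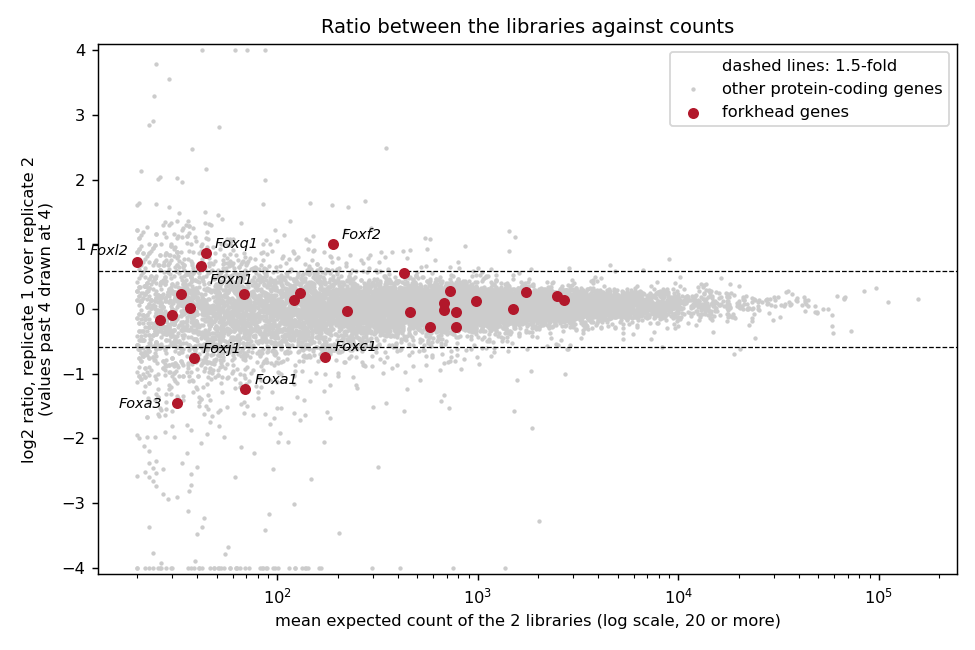
Log2 ratio of replicate 1 over replicate 2 against the mean expected count (log axis, 20 or more) for the 29 forkhead genes compared (dark points) and the other protein-coding genes (grey), with dashed lines at 1.5-fold. The 8 labelled Fox genes lie past the lines, and of the 18 with 100 counts or more only Foxf2 and Foxc1 do.

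Several Fox genes lie in clusters. On chromosome 13, Foxq1, Foxf2 and Foxc1 lie on the plus strand with starts 69.7 and 250.5 kb after that of Foxq1. Foxq1 and Foxf2 were higher in replicate 1 and Foxc1 in replicate 2. On chromosome 8, Foxf1, Foxc2 and Foxl1 start within 43.6 kb, at 11.3 and 8.25, 2.50 and 2.43, and 0.18 and 0.21 TPM in replicates 1 and 2. None of these 3 was past 1.5-fold, with log2 ratios of 0.56, 0.14 and -0.13. Foxf1 was just under that limit at 1.47-fold, from 555 and 308 counts. Its interval (0.35 to 0.76) left out 0, and it was higher in replicate 1, as Foxf2 was. Both clusters thus held genes at levels several fold apart. On chromosome 4, Foxe3 starts 17.1 kb from Foxd2 and had 0 counts and 1 count.

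**Figure D4:**
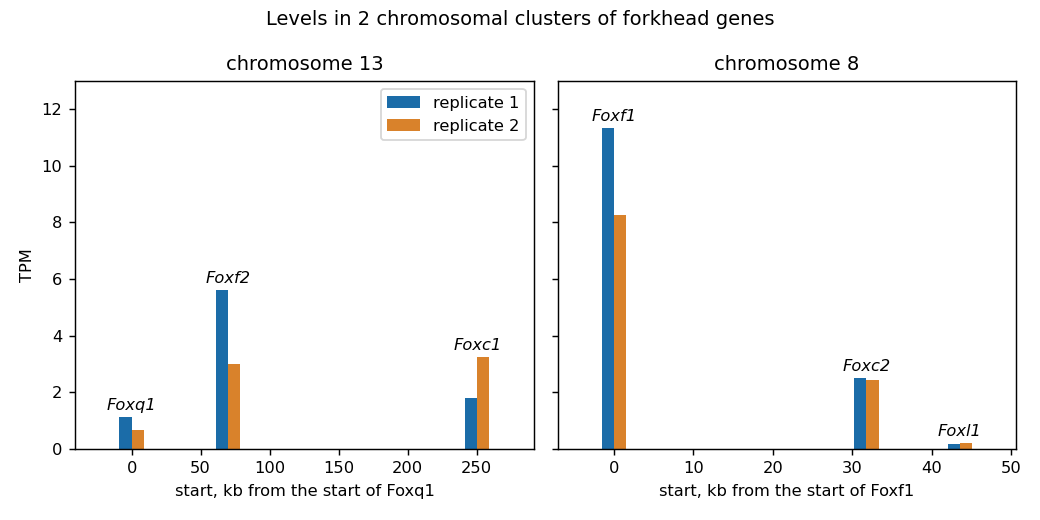
TPM in replicate 1 (left bar of each pair) and replicate 2 (right bar) of the Fox genes of the clusters on chromosomes 13 and 8, placed by the distance of their starts in kb. Foxf1 is the highest gene of its cluster in both libraries, while Foxf2 exceeds Foxc1 in replicate 1 only.

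Non-coding genes begin close to several Fox genes. Starts and distances are those of GENCODE M21, whose models can differ from the quantified ones. The quantified Foxl2 row, for 1, is 1241 nt long, against 3256 exonic nt in M21. Foxd2os, whose start lies 384 nt from that of Foxd2 on the opposite strand, had 7.5 and 10.2 TPM in replicates 1 and 2, which is 4.87 and 7.31 times the level of Foxd2. Fendrr, 1276 nt from Foxf1, had 3.51 and 2.76 TPM, 0.31 and 0.33 times Foxf1. Foxl2os, whose start lies 11 nt from that of Foxl2, had 1.16 and 0.63 TPM, close to Foxl2 itself, and 1700018A04Rik, 24 nt from Foxf2, had 1.04 and 0.71 TPM from 24 and 12 counts. Gm26826 beside Foxj2 had 2.09 and 2.23 TPM, Gm26770 upstream of Foxm1 2.16 and 2.10 TPM, and Gm20402, which overlaps 674 nt of Foxo1 on the opposite strand, 0.78 and 1.71 TPM. Gm12446 beside Foxe1 had 0.76 and 0.91 TPM, Flicr beside Foxp3 0.67 and 0.51 TPM and Gm12688 beside Foxd3 0.31 and 1.03 TPM. The other measured non-coding neighbours had less than 0.60 TPM in both libraries. Where a neighbour overlaps exons on the opposite strand, reads of the 2 genes cannot be told apart, as no source used here gives strandedness.

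The promoter of Foxf2 is printed because it shows this divergent arrangement, and that of Foxa1 because it alone of the Fox promoters in hand held the forkhead core motif. Both are 300-base windows on the strand of the gene, from 250 bases before to 50 after a RefSeq start (GRCm38.p6). In the Foxf2 window, chr13:31625566-31625865, plus strand, the 25 capitals run from the annotated start of 1700018A04Rik to that of Foxf2. In the Foxa1 window, chr12:57546062-57546361, minus strand, the 7 capitals are TGTTTAC read on the opposite strand, 141 nt before the RefSeq start. The Foxa1 values rest on Foxa1-201, and another annotated transcript, not analysed here, starts 805 nt upstream of the RefSeq start.
Foxf2: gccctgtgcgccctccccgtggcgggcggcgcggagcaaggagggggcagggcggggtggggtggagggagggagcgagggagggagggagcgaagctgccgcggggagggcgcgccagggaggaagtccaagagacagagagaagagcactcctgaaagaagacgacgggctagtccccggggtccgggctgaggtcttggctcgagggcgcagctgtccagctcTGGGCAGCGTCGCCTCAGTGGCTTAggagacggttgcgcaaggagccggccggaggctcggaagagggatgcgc
Foxa1: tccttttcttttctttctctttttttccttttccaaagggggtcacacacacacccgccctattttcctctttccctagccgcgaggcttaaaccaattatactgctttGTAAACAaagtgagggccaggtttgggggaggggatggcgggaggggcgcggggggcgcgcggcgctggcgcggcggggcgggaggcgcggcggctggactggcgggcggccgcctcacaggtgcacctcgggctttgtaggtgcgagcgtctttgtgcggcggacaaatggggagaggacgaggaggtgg
Promoter windows were at hand for 28 of the 44 genes. The motif TGTTTAC, searched on both strands, lay in the windows of 1 of these 28 genes (3.57%) and of 3.43% of protein-coding genes. Windows of Fox genes had a median GC content of 62.7% and a median of 22 CpG dinucleotides, against 57% and 14 in protein-coding genes.

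Many Fox genes are compact. Coding models of 1 exon only were annotated for 13 of the 44 (29.5%), against 5.89% of protein-coding genes. Of these 13, 4 reached 1 TPM in both libraries (Foxc1, Foxc2, Foxd1 and Foxd2), and of the 31 with more exons 16 did. Detection by exon number was not computed over all protein-coding genes, so this split has no background. The single-exon genes peaked at a mean of 5.08 TPM, in Foxd1.

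Transcript values showed how far the leading levels rest on short models. Of 18 Fox genes with more than 1 transcript row, 12 reached 1 TPM in both libraries. In 11 of these the same transcript led in both, a count not set beside one over all genes. The exception was Foxn3. In replicate 1 its largest share of TPM fell on Foxn3-205, an incomplete coding model of 566 nt (40.2%, and 36.4% in replicate 2), and in replicate 2 on the full-length Foxn3-201 (34.9% in replicate 1 and 39.1% in replicate 2). By expected counts Foxn3-201 led in both, with 57.3% and 57.3% of the gene's counts, and Foxn3-205 held 11.4% and 9.2%. Foxn3 transcripts under 1000 nt held 46.6% and 38.5% of its TPM. With transcripts of 1000 nt or more only, Foxn3 had 44.3 and 42.7 TPM and Foxp1 43.2 and 41.3 TPM, so most of the lead of Foxn3 over Foxp1 rested on short models. This restriction was chosen after the values were seen.

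In Foxp1, with 32 transcript rows, a coding model of 1848 nt led in both libraries with 43.3% and 43.3% of TPM but 25.8% and 26.9% of counts. A longer coding model, Foxp1-204 (7177 nt), held 18.5% and 18.7% of TPM and 44.7% and 47.1% of counts. Foxp2-207 held 58.8% and 56.0% of Foxp2 TPM, Foxm1-201 73.4% and 79.7% of Foxm1, Foxj3-202 52.3% and 52.3% of Foxj3 and Foxp4-204 36.4% and 33.4% of Foxp4. In Foxp4 the second-ranked coding transcript differed between libraries, with Foxp4-201 at 20.1% and 11.5% and Foxp4-202 at 16.7% and 22.7%.

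**Figure D5:**
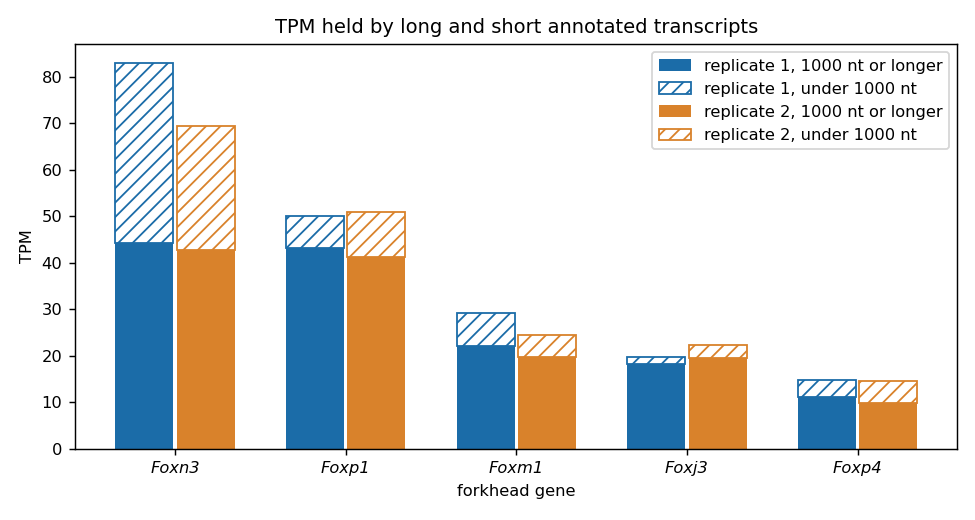
TPM of the 5 highest Fox genes in replicate 1 (left bar) and replicate 2 (right bar), split into annotated transcripts of 1000 nt or more (solid) and shorter ones (hatched). Short transcripts hold 46.6% and 38.5% of Foxn3 TPM, and without them Foxn3 and Foxp1 stand at nearly the same height.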

How the data were processed

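Total RNA libraries were made from 10 ng of RNA over 200 nt, per the labels' protocols. Strandedness, aligner and quantifier are not given in the sources used here. The submitters' processing notes name assembly mm10 and annotation M4. The authors' expected counts, a column of the file headers, estimate reads for each gene or transcript and can be fractional. The deposited TPM values are scaled per length to 1000000 over all rows, and spike-in rows took 13.4% of TPM in replicate 1 and 9.68% in replicate 2. The deposited FPKM values served as an alternative. The deposited credibility bounds are a signal in TPM or FPKM, at a level the headers do not state.

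Identifiers were named with GENCODE M21 (GRCm38, the assembly of mm10), matching 42462 of 43346 gene rows. Gene coordinates, starts, exon numbers and transcript sequences are also those of M21, not of the M4 models that were quantified. Spike-in and number-only rows (6.27% and 0.000171% of counts in replicate 1, 4.45% and 0.000151% in replicate 2) stayed out of library sizes. Expected counts were rounded and scaled by TMM (edgeR 4.0.16, R 4.3.3). Log2 ratios of replicate 1 over replicate 2 used a prior count of 1, and intervals are exact Clopper-Pearson 95% (scipy 1.17.1). On simulated counts of 43346 genes with 200 changed by 1.5-fold in this comparison, the median recovered fold was 1.51 and 98% had the right direction.

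The genes, lists and pairs were chosen with earlier results of these data known. The values of 1 Fox gene are not reported here. All others are accounted for, those at 1 TPM or more in both libraries by name, and of each related list the highest 2 to 4 genes are named. The other genes named (the ligands, Nodal, Smad2, G6pc, protein-coding neighbours and most cell type markers) are named outside this rule. Alternatives were other thresholds, units, scalings and left-out replicates, and DESeq2 1.42.0 size factors.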

Additional observations from a re-analysis of the deposited data

How the results depend on the processing

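Counts rest on 2 libraries of 1 group, and genes with a mean count under 20 were not compared between them. The 20 genes at 1 TPM or more became 28 at 0.5 TPM, 17 at 2 TPM and 18 in FPKM, and 22 or 23 with 1 library left out. The median of mean TPM (0.93) was 0.64 in FPKM, and it ranged from 0.95 to 1.21 with 1 library left out. The 8 genes past 1.5-fold were 17 with no minimum count and 2 with a mean count of 100 or more, since other genes were then compared. They were 8 under DESeq2 size factors, total counts and both other prior counts, and 7 by the ratio of TPM. The 13 pairs apart were 14 to 17 with 1 library left out. In expected counts not divided by length, 12 kept their order. The exception was Foxo1 over Foxo3, where Foxo1 is the longer model. Its log2 ratio was -0.12 in replicate 1 and 0.12 in replicate 2 (mean 0.0016), so the order changed in replicate 2 only. Of 16 pair ratios 9 others moved by more than their SD, among them Foxn3 over Foxn2 (to 1.34), Foxp1 over Foxp2 (1.99), Foxo3 over Foxo4 (2.60) and Foxp4 over Foxp2 (0.08). With transcripts of 1000 nt or more, an alternative added after seeing the data, 5 moved and none reversed. The same transcript led in 8 genes at 5 TPM and in 15 with no minimum. No paired analysis was possible because there is 1 group.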
